A study of Homo sapiens with 2 samples.

Results

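Here 33 genes that p53 is known to switch on were followed in MRC-5 cells, an established line of diploid human fetal lung fibroblasts, after knockdown of periostin, a matricellular protein that fibroblasts secrete. The members were listed by name as known p53 targets, with earlier results of these data known, and each was found on the array through the RefSeq accession of its probe. All 33 could be measured, among 21739 genes named in this way. The first group was 1 sample transfected with control siRNA, and the second was 1 sample of the same cells given 10 nM periostin siRNA for 48 h, a dose and time that the methods state for periostin siRNA. No other allele or agent is named for either group, and both were transfected, so that the transfection itself is shared. RNA of each sample was hybridized to 1 single-colour Agilent array. A single array per condition allows no statistical test, and p-values are therefore absent throughout.

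p53 is a transcription factor held at a low level by the ubiquitin ligase MDM2, and stress such as DNA damage releases it. Its targets pull in several directions, since some halt the cell cycle, some repair DNA or restrain oxidative stress, some push the cell towards apoptosis, and some, MDM2 among them, shut p53 down again. In lung fibroblasts the pathway is best known for its part in growth arrest and senescence.

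The signals below are background-subtracted spot intensities scaled so that both arrays had a common 75th percentile, and the log2 ratio is that of periostin siRNA over control siRNA. A gene is represented by its brightest probe. Signals of different genes come from different probes and are not ranked against each other. For the 30 members whose probe was printed once, the error of the ratio combines the scanner software's errors of the probe's spot on each array. It was 0.20 to 0.21 on the log2 scale and is called the spot error. For the 3 printed 10 times the error is the SD over the spots. For single bright spots the error was nearly constant, so exceeding it amounts to a fixed cut and not to a measured spread. Neither error covers the difference between cultures. A lower signal cannot tell fewer cells that express a gene from less RNA per cell.

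POSTN, the targeted gene, dropped from a signal of 2638 to one of 279.8 after its knockdown, at -3.24 ± 0.20 on the log2 scale (1 spot). All 10 fibroblast markers, such as COL1A1 and VIM, were well above background on both arrays. Of markers of other cells, CDH1, KRT5 and KRT14 of epithelium, PECAM1 of endothelium and LAPTM5 and MS4A1 of immune cells were not well above background on either array. EPCAM, an epithelial marker, had a signal of 34.6 with control siRNA and 135 with periostin siRNA from a spot that carried outlier flags. Of the epithelial, endothelial and immune marker lists 2 of 5, 2 of 4 and 2 of 5 genes were well above background on both arrays. Their summed signals went from 75.8 to 201, from 133 to 130.2 and from 1559 to 2496, the last being nearly all CD68, a lysosomal protein that fibroblasts also make. The part of this in the results below was not tested.

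The p53 targets lay modestly above the other genes of the array. The median log2 ratio of the 33 members was 0.46, against 0.06 over the 16050 genes for which a ratio or its bound could be given. The ratio was above 0 for 22 of the 33 members, beside 54.5% of all genes, and for each of these 22 it exceeded the error of its spots, as for 36.7% of all genes. It was below 0 for 11 members, beside 45.5% of all genes. Of these, 7 exceeded the error, beside 29.7% of all genes, and 4, namely RRM2B, PLK2, TNFRSF10A and TNFRSF10B, did not. Among the 7, MDM2 was counted by its brightest probe and was split between its probes, as described below. BAX exceeded only the SD over its 10 spots, not the error of a single spot. No member passed the 3-fold threshold of the study in either direction, which 3.37% of all genes did upwards and 2.75% downwards. At 2-fold, which 7.97% of all genes passed upwards and 6.42% downwards, 4 members were higher and 0 were lower. These 4 were EDA2R, DDB2, FDXR and SESN1. At 1.5-fold, a threshold added after the values were seen, 13 members were higher, beside 17.6% of all genes, and APAF1 alone was lower, beside 13.7%.

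**Figure D1:**
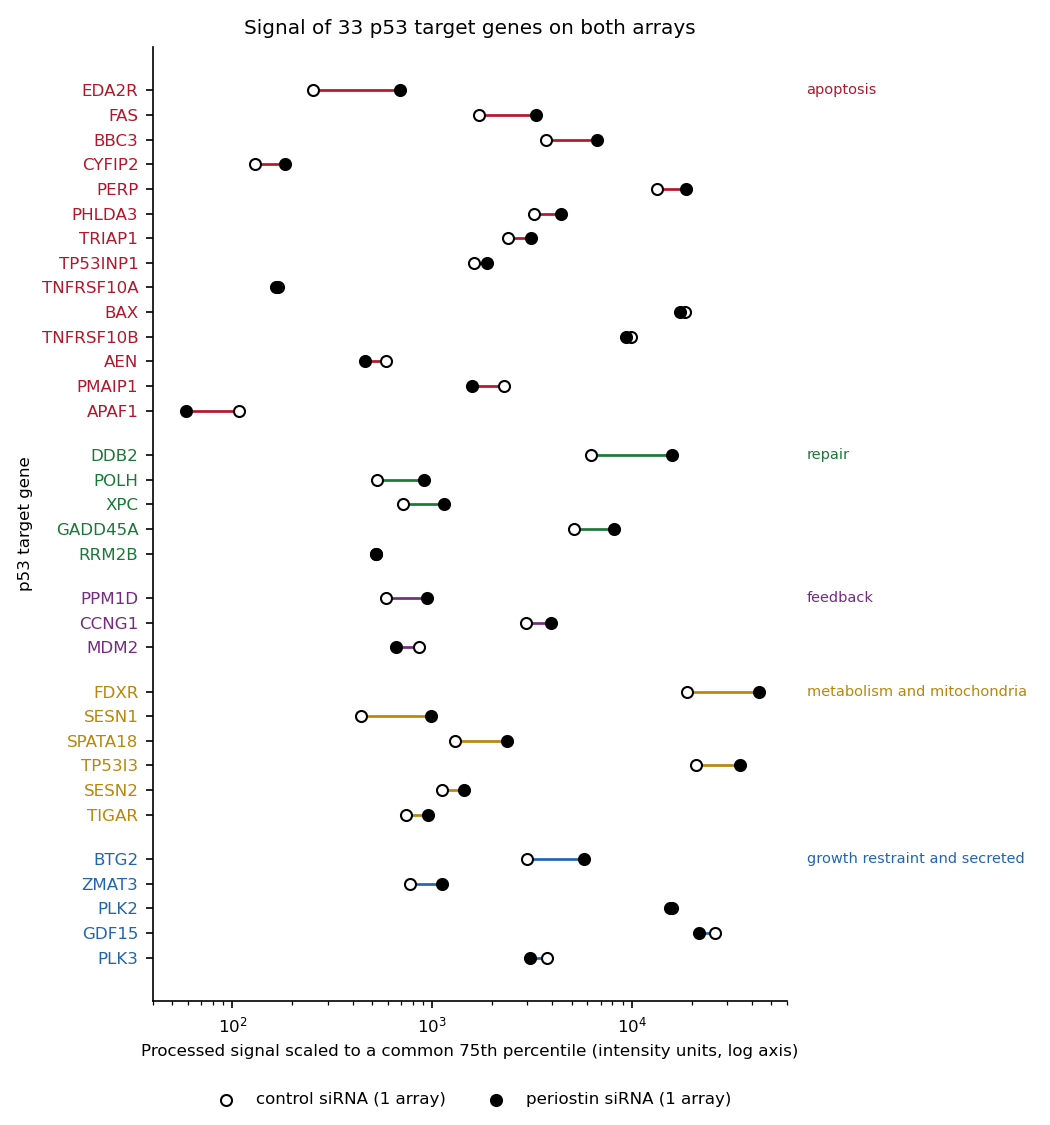
Signal of each of the 33 p53 target genes on the control siRNA array (open circles) and the periostin siRNA array (filled circles), on a log axis in intensity units scaled to a common 75th percentile, grouped by role. Each circle is 1 array. The filled circle lies to the right for 22 genes and to the left for 11, and the whole metabolism and mitochondria group lies to the right.

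p53 binds DNA at a pair of 10-base repeats, the p53 consensus, which may be parted by a short spacer. RefSeq promoter windows of 300 bases (GRCh38.p14) were found for 27 of the 33 members. They were searched for the p53 consensus with a spacer of 0 or 1 base, keeping the C and G of the CNNG core in both repeats. The consensus is its own reverse complement, so 1 reading covers both strands, and overlap with other motifs was not examined. Windows with at most 3 mismatches were found for 8 of the 27 members, beside 2.91% of the 27305 genes with a window. Counted by window, such a match was present in 9 of the 40 windows of members and in 2.38% of all 35116 windows. The members were listed as known p53 targets, so this excess reflects their choice and is no result of these arrays. Sites outside the windows were not searched. The sites are shown because they let the members that were higher and those that were lower be compared at the kind of sequence that p53 binds. In the site lines that follow, capitals mark bases that match the p53 consensus, and small letters mark mismatches and the spacer.
DDB2: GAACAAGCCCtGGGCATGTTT
AEN: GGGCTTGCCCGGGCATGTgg
FAS: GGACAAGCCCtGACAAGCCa
MDM2: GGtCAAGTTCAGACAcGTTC
FDXR: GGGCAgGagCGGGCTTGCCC
SESN1: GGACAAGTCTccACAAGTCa
GDF15: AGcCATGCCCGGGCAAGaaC
PMAIP1: GAGCgTGTCCGGGCAgGTCg

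On GRCh38.p14, each read on the strand of its gene, they lay for DDB2 at chr11:47214979-47214999 (+), for AEN at chr15:88621306-88621325 (+), for FAS at chr10:88991309-88991328 (+) and for MDM2 at chr12:68808923-68808942 (+). The others lay for FDXR at chr17:74872996-74873015 (-), for SESN1 at chr6:109009018-109009037 (-), for GDF15 at chr19:18386186-18386205 (+) and for PMAIP1 at chr18:59899811-59899830 (+). Of these 8 genes, DDB2, FDXR, SESN1 and FAS were higher with periostin siRNA, whereas AEN, GDF15 and PMAIP1 were lower and MDM2 was split between its probes, as described below. A match in such a window was thus present on both sides. EDA2R, the member with the highest ratio, had no such match, with 9 or more mismatches in its windows. DDB2 was the only member whose match had 0 mismatches, which 7 of the 35116 windows had. Its window, chr11:47214724-47215023 on the + strand, is shown with the match in capitals because DDB2 was also among the 4 members past 2-fold.
DDB2 promoter: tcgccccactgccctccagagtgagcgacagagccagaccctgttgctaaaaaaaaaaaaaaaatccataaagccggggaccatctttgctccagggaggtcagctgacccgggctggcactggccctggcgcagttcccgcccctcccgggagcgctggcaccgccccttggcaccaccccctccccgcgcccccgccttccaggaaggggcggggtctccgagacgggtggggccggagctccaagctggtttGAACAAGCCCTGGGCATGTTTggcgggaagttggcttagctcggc

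MDM2 has an outer start and an inner one within the gene, and the inner one is the textbook p53-driven promoter. The best match in the outer windows had 6 mismatches, and that in the inner window, chr12:68808767-68809066 on the + strand, had 2. The inner window is shown with the whole match in capitals, its 2 mismatches included.
MDM2 inner promoter: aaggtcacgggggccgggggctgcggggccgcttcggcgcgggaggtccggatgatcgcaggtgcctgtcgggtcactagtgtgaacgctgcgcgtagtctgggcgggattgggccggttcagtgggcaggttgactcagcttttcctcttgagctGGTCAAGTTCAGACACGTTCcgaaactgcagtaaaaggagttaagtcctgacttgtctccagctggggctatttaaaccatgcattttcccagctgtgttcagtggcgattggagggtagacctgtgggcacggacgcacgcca

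The feedback targets turn p53 off or tune it. MDM2, the ubiquitin ligase that removes p53, went from 862 to 663 on its brightest probe, a log2 ratio of -0.38 ± 0.20. The other 3 MDM2 probes lay on the opposite side. They went from 481 to 654 with a log2 ratio of 0.44, from 252 to 320 with 0.35, and from 137 to 189 with 0.46 ± 0.10 (SD over 10 spots). Of the 13 members with several probes, MDM2 alone had probes on both sides of 0 among those measured on both arrays, each by more than its error, and its direction was therefore not settled. PPM1D, the phosphatase WIP1 that removes activating phosphates from p53 and its kinases, went from 586 to 939, a log2 ratio of 0.68, and its second probe gave 0.48. CCNG1, cyclin G1, which recruits a phosphatase to MDM2, went from 2947 to 3926, a log2 ratio of 0.41, and its second probe gave 0.35. The 3 feedback targets had a median of 0.41.

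The apoptosis targets were divided, with 8 of 14 above 0, or 57.1% beside 54.5% of all genes, and a median log2 ratio of 0.30. On the mitochondrial arm, the genes at the same step differed in direction. BBC3, which encodes the BH3-only protein PUMA, went from 3707 to 6678, a log2 ratio of 0.85 ± 0.20. PMAIP1, which encodes NOXA, the other BH3-only protein of the set, went from 2290 to 1591, a log2 ratio of -0.53 ± 0.20. BAX, the pore former that both act through, was nearly level at 18432 and 17365, a log2 ratio of -0.09 ± 0.02 (SD over 10 spots), while its second, dimmer probe gave -0.44. APAF1, the scaffold of the apoptosome that activates caspase-9, went from 109 to 58.4, a log2 ratio of -0.89 ± 0.21, the lowest of all 33 members. With the normexp background correction the ratio was -0.55.

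Among the death receptors, FAS was higher and the TRAIL receptors were not. FAS, which triggers apoptosis on binding FAS ligand, went from 1714 to 3307, a log2 ratio of 0.95 ± 0.07 (SD over 10 spots), and its other probes gave 0.92 and 0.93. Of its spots on both arrays 6 carried outlier flags, and the other probes carried 0. TNFRSF10A, the TRAIL receptor DR4, was at 169 and 165, and TNFRSF10B, the TRAIL receptor DR5, at 9946 and 9329, log2 ratios of -0.04 and -0.09 that lay within the spot error. The sign of TNFRSF10A changed when the arrays were not scaled. EDA2R, a member of the TNF receptor family that binds ectodysplasin A2, had the highest ratio of the 33, from 252 to 694 and 1.46 ± 0.20. Its other probe was dim, at 4.52 and 12.8, and carried 2 outlier flags. That probe was well above background with periostin siRNA alone, where it gave at least 1.69-fold.

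The remaining apoptosis targets stayed within 1.5-fold. PERP, a membrane protein of desmosomes and a p53 effector, went from 13363 to 18680, and CYFIP2, a partner of the WAVE actin complex, from 129 to 183, with log2 ratios of 0.48 and 0.50. PHLDA3, which competes with AKT for membrane lipids, went from 3223 to 4419, and TP53INP1, which helps p53 acquire its pro-apoptotic phosphorylation, from 1626 to 1888, at 0.46 and 0.22. TRIAP1, which protects cells from apoptosis, went from 2391 to 3123 at 0.39. AEN, a nuclease of apoptotic cells, went the other way, from 587 to 461 at -0.35, although its second probe gave -0.09.

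Of the 5 repair targets 4 were higher by more than 1.5-fold, the threshold added after the values were seen, beside 17.6% of all genes, and their median log2 ratio was 0.68. The genes of damage recognition in nucleotide excision repair were both among these. DDB2, the subunit that finds ultraviolet lesions, went from 6281 to 15943, a log2 ratio of 1.34 ± 0.20 or 2.54-fold, and its second probe, from 586 to 1465, gave 1.32. XPC, which senses the distorted helix, went from 718 to 1149, a log2 ratio of 0.68. POLH, the polymerase that copies past ultraviolet lesions, went from 529 to 911 at 0.78, but its dim second probe was at 46.1 and 46.4 and gave 0.01. GADD45A, a stress sensor that binds PCNA, went from 5154 to 8179 at 0.67. RRM2B, the p53-inducible subunit of ribonucleotide reductase, was the exception with 523 and 522 and a ratio of -0.00, whose sign changed with the scaling. RRM2, the subunit that cycling cells use in its place, went from 173 to 26.2, a log2 ratio of -2.72 ± 0.22.

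All 6 targets that act in metabolism and in mitochondria were higher, beside 54.5% of all genes, with a median log2 ratio of 0.80. FDXR, ferredoxin reductase of the mitochondrial electron chain that serves steroid and iron-sulphur cluster synthesis, went from 18861 to 43297, a log2 ratio of 1.20 ± 0.20. SESN1, a sestrin that restrains mTORC1 and oxidative stress, went from 441 to 984 at 1.16. SESN2, its paralogue, went from 1122 to 1453 at only 0.37. SPATA18, which takes part in the removal of damaged mitochondrial proteins, went from 1299 to 2380 at 0.87, and TP53I3, a quinone oxidoreductase, from 20995 to 34666 at 0.72 on both of its probes. TIGAR, which lowers glycolytic flux, went from 736 to 950 at 0.37.

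The 5 targets that restrain growth or are secreted had a median log2 ratio of -0.03 and did not move as a group. BTG2, an antiproliferative protein that promotes mRNA deadenylation, went from 2976 to 5772 at 0.96, and ZMAT3, an RNA-binding protein, from 774 to 1120 at 0.53 ± 0.05 (SD over 10 spots). PLK2 and PLK3, stress-responsive polo-like kinases, were at 15804 and 15443 and at 3753 and 3104, log2 ratios of -0.03 and -0.27. GDF15, a secreted stress cytokine, was at 26008 and 21811, a log2 ratio of -0.25. Without scaling, and with quantile normalization, PLK2 came to lie above 0.

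**Figure D2:**
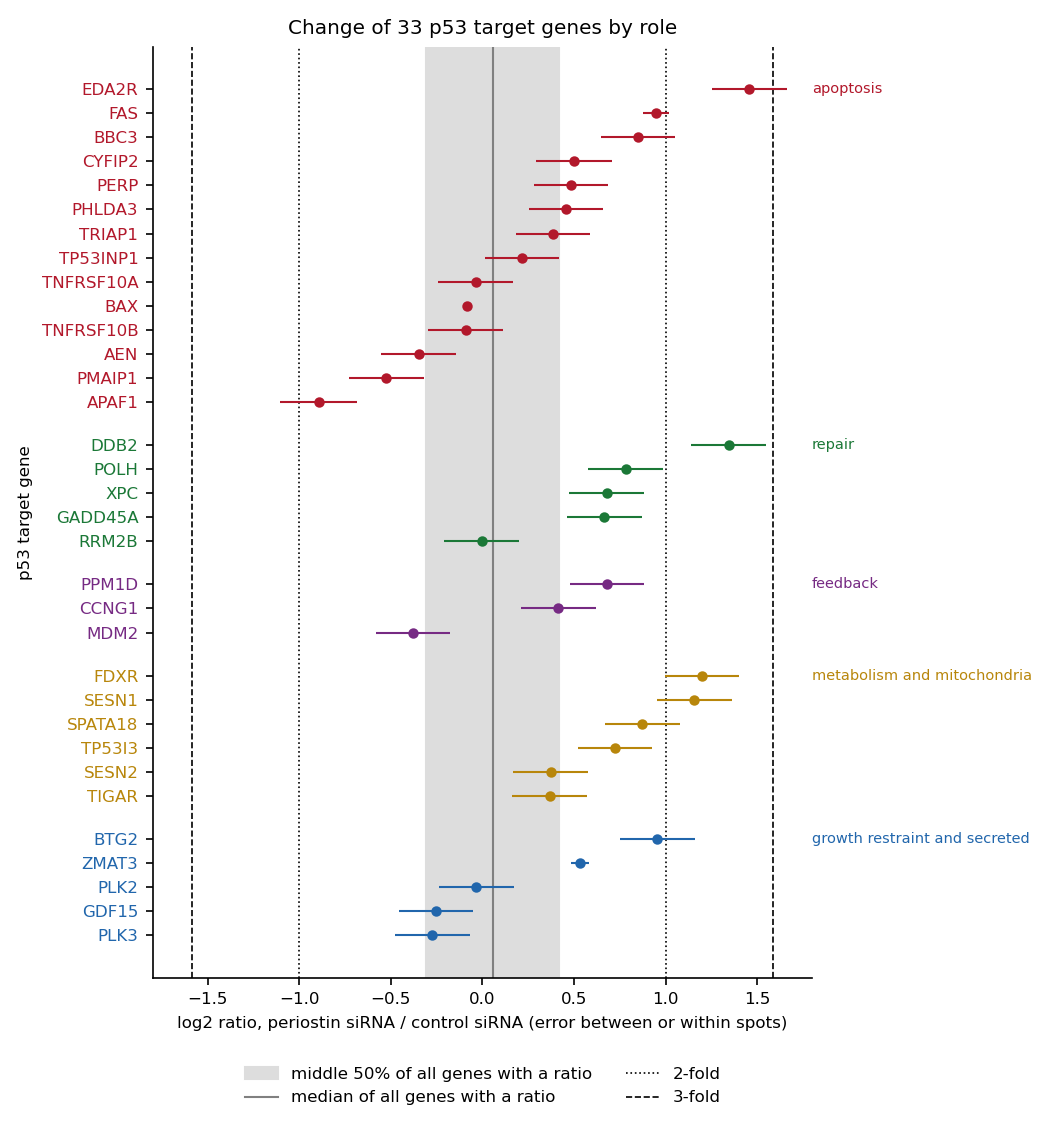
log2 ratio (periostin siRNA over control siRNA) for the 33 p53 target genes by role, from the brightest probe. Bars are the error combined from 1 spot per array, or the SD over 10 spots for BAX, FAS and ZMAT3. Grey shading is the middle 50% of the 16050 genes with a ratio, the grey line their median of 0.06, and dotted and dashed lines are 2-fold and 3-fold. EDA2R, DDB2, FDXR and SESN1 lie beyond 2-fold, none lies beyond 3-fold, and APAF1 is lowest.

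Set side by side, the repair targets had a median log2 ratio of 0.68, the feedback targets 0.41 and the apoptosis targets 0.30. The ranges overlapped. They ran from -0.00 for RRM2B to 1.34 for DDB2 among the repair targets, and from -0.89 for APAF1 to 1.46 for EDA2R among the apoptosis targets. Among the feedback targets they ran from -0.38 for MDM2 to 0.68 for PPM1D. The MDM2 value rests on its brightest probe alone, and its other probes lay at 0.35 to 0.46. With 5, 3 and 14 genes and 1 array per condition, the difference between the groups was not tested.

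Genes of like signal gave the same picture. The 16050 genes were divided into 4 signal classes of like size by their mean signal over both arrays, and no member fell in the dimmest class. The 11 members in the third class had a median log2 ratio of 0.53, against 0.04 for the 4012 genes of that class, whose middle 50% ran from -0.28 to 0.35. The 19 members in the brightest class had a median of 0.46, against 0.04 for its 4013 genes, whose middle 50% ran from -0.24 to 0.30. In these classes 8 of the 11 and 12 of the 19 members lay above the upper bound, and 2 of the 11 and 3 of the 19 lay below the lower one. The 3 members in the second class, CYFIP2, TNFRSF10A and APAF1, lay at 0.50, -0.04 and -0.89, around a median of 0.05 for the class.

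**Figure D3:**
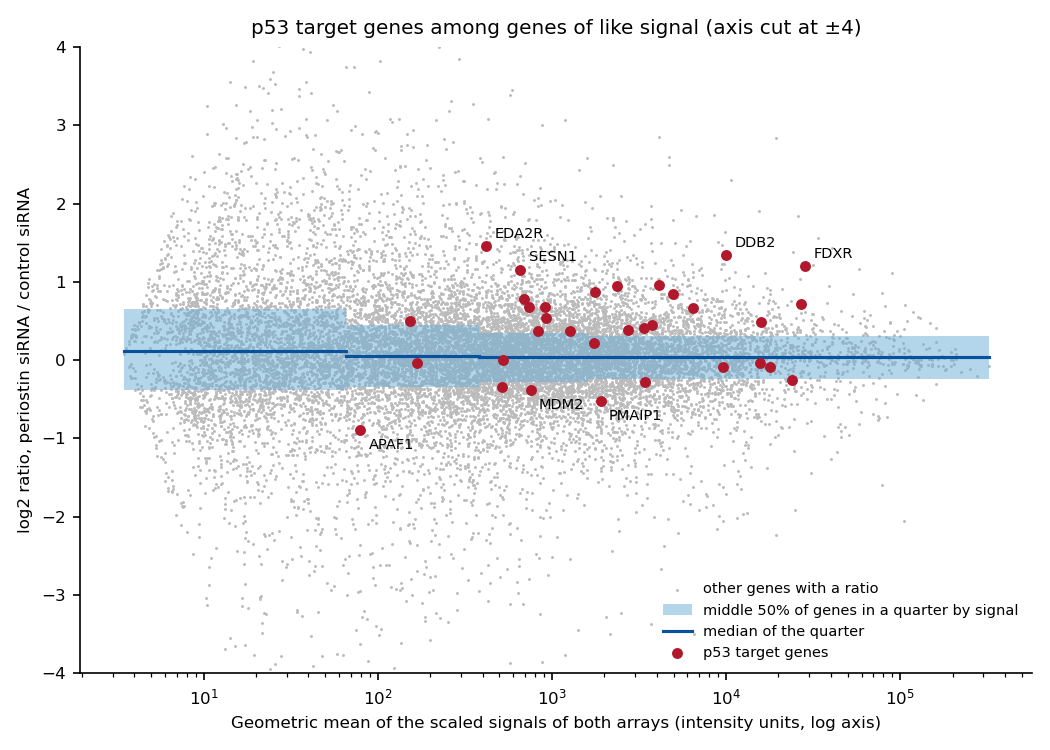
log2 ratio (periostin siRNA over control siRNA) against the geometric mean of the scaled signals of both arrays (log axis, intensity units) for genes with a ratio (grey) and the p53 target genes (red). Blue bands give the middle 50%, and blue lines the median, of each signal class. Most members of the brighter classes sit above the band, and APAF1 lies lowest.

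Of the 33 members 13 had more than 1 probe, and probes of the same gene read different stretches of its transcripts. DDB2, FAS and TP53I3, whose ratios were high, were matched closely by their other probes. POLH, BAX and CYFIP2 differed between probes, at 0.78 and 0.01, -0.09 and -0.44, and 0.50 and 0.16. AEN, at -0.35 and -0.09, differed by little more than the error of a spot, and a difference carries the errors of both probes. For MDM2 the brightest probe stood against the other 3.

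**Figure D4:**
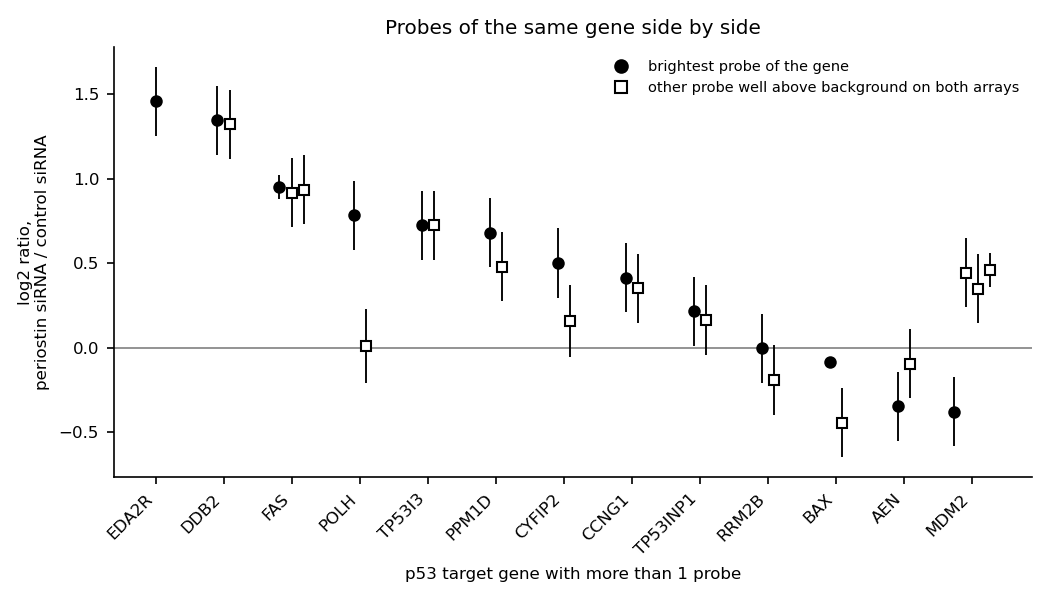
log2 ratio (periostin siRNA over control siRNA) for each probe well above background on both arrays, for the 13 p53 target genes with more than 1 probe. Filled circles are the brightest probe of the gene and open squares the others. Bars are the error combined from 1 spot per array or the SD over 10 spots. The MDM2 probes lie on both sides of 0, at -0.38 and at 0.35 to 0.46, whereas those of DDB2, FAS and TP53I3 coincide.

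Upstream of the targets, MDM4, the partner of MDM2 that masks the activation domain of p53, had probes on both sides of 0, from 0.28 for the brightest to -0.38 for the probe printed 10 times. In the list of p53 and its regulators 23 of 24 genes had a ratio, with a median of -0.08. Of these 10 lay above 0 and 13 below, beside 54.5% and 45.5% of all genes. HIPK2, a kinase that phosphorylates p53 at an apoptosis-linked serine, was the only one higher by more than 2-fold, from 784 to 1764 at 1.17, with 0.70 to 1.16 on its other probes. SIRT1, a deacetylase of p53, was the only one lower by more than 2-fold, from 164 to 69.9 at -1.23. The kinases ATM, CHEK2, ATR and CHEK1, which relay DNA damage to p53, lay at 0.28, 0.26, -0.45 and -0.22, and for ATM the second probe gave -0.52.

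CDKN1A, which encodes p21 and is the best known p53 target of cell cycle arrest, did not share the shift of the members. Its signal went from 2625 to 2509, a log2 ratio of -0.07 ± 0.20, and it stayed between -0.19 and -0.02 under all alternative settings.

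CDKN1A belonged to a second list of 33 p53 targets that are no members. Their median log2 ratio, 0.46, was the same as that of the members, with 23 of 33 above 0, beside 54.5% of all genes. At 2-fold 5 were higher, beside 7.97% of all genes, and 1 was lower, beside 6.42%. TNFRSF10C, a decoy receptor for TRAIL, went from 213 to 1284, a log2 ratio of 2.59. It contrasts with the signalling receptors TNFRSF10A and TNFRSF10B and with TNFRSF10D, the other decoy, which was at -0.33. FUCA1, a lysosomal fucosidase, went from 84.9 to 465 at 2.45 ± 0.12 (SD over 10 spots), and PGF, a growth factor of the VEGF family, from 64.9 to 237 at 1.87. NINJ1, a protein that ruptures the plasma membrane of dying cells, went from 20748 to 48077 at 1.21. GLS2, mitochondrial glutaminase, was well above background with periostin siRNA alone and was at least 2.36-fold higher.

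Some p53 targets also answer to ATF4 and its partner CHOP, the transcription factors of amino acid shortage and of stress in the endoplasmic reticulum. SESN2, TNFRSF10B, PMAIP1 and GDF15 are examples among the members, not a full list, and lay at 0.37, -0.09, -0.53 and -0.25. BBC3 and GADD45A, also reported to answer to these factors, were higher, at 0.85 and 0.67. In a list of 10 ATF4 response genes 9 lay below 0, beside 45.5% of all genes, with a median log2 ratio of -0.81. Lower by more than 2-fold were 4, beside 6.42% of all genes, and 3 of these passed 3-fold, beside 2.75%. CHAC1, a glutathione-degrading enzyme, went from 11425 to 2481 at -2.20, and ASNS, asparagine synthetase, from 23348 to 5787 at -2.01. SLC7A11, the cystine transporter and itself reported to be repressed by p53, went from 11371 to 3689 at -1.62, and TRIB3, a pseudokinase, from 15818 to 5303 at -1.58. ATF5, at 0.22, was the highest. The part of the ATF4 response in the values of these members was not tested.

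**Figure D5:**
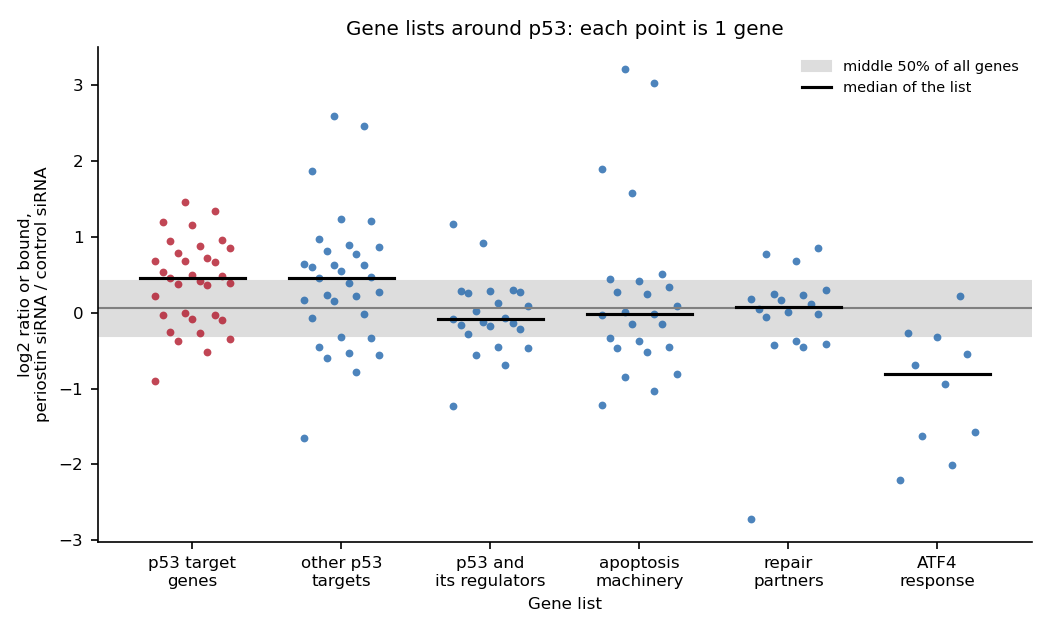
log2 ratio, or its bound, of periostin siRNA to control siRNA for each gene of 6 lists; red points are the 33 p53 target genes, blue points the other lists, black lines the median of each list, grey shading the middle 50% of all genes and the grey line their median. The medians of the members and of the other p53 targets are both 0.46, those of the regulators, the apoptosis machinery and the repair partners lie near 0, and that of the ATF4 response is -0.81.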

How the data were processed

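RNA of MRC-5 cells with control siRNA or periostin siRNA was measured on 1 array each. The authors deposited the intensity values of each array as scanner output of Feature Extraction, version 11.5.1.1 by the file header (the submitters' processing notes name 12.0.3.1), background-subtracted and, by the header's statistics, detrended. A further deposited table holds intensity values called normalized by the authors, whose method is not given in the sources used here. For probes printed once it equalled the scanner intensity times 1 constant, 3.65 on the control array and 3.54 on the periostin siRNA array. The array design used hg19.

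The analysis ran in Python 3.11.15, numpy 2.4.6 and pandas 2.3.3, with R 4.3.3 and limma 3.58.1 for the normexp, quantile and loess alternatives. Control spots were left out. The 75th percentile of the log2 signals of the 58717 other spots, 372 with control siRNA and 383 with periostin siRNA, was set equal. Repeat spots were averaged as log2 values, and the brightest probe stood for a gene. A probe was taken to be well above background where the scanner flag was set for at least as many spots as not. Where this held on 1 array alone, the fold was taken against the other array's signal or its lowest signal well above background, whichever is higher. In the latter case it is a bound. Gene names came from the RefSeq table of GRCh38.p14, which matched 65.1% of the spots. The pooled SD of the log2 ratio over the spots of 667 probes printed 10 times was 0.12. The number of arrays limits the precision. The scaling and the ratios were tested on simulated data.

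Members and gene lists were chosen with earlier results of these data known. The text names every p53 target of the list, POSTN, MDM4 and CDKN1A, and of the other lists each gene past 2-fold and the highest and lowest gene; other names were chosen after their values were seen. The values of some genes that this rule names are not reported here. The alternatives concerned background correction, scaling, the deposited table, the choice of probe, dim or flagged spots and the threshold.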

Additional observations from a re-analysis of the deposited data

How the results depend on the processing

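No paired analysis was possible because there is a single array of either kind, and no replicate could be left out. The medians of all 33 p53 targets and of the apoptosis, repair and feedback targets stayed above 0 under each of the 11 alternatives, and 22 or 23 members lay above the median of all genes. Scaling on the array median moved these medians most, to 0.33 for the p53 targets, 0.17 for the apoptosis targets, 0.55 for the repair targets and 0.29 for the feedback targets. It shifted the median of all genes by -0.13, so the distance between members and all genes stayed at 0.40. The distance was smallest, 0.33, when all probes of a gene were averaged. This setting turned MDM2 from -0.38 to 0.22. PLK2, RRM2B and TNFRSF10A, within their spot error, changed sign under some scalings. No member passed 3-fold under any alternative that kept this threshold, 4 passed 2-fold (5 upwards with normexp, and APAF1 downwards with scaling on the median), and 14 passed 1.5-fold, a threshold chosen after seeing the data. Dim signal limits APAF1 and the second probe of POLH.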

Other observations

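The wider apoptosis machinery showed no common direction, with a median log2 ratio of -0.02 over the 25 of 27 genes that had a ratio. Above 0 lay 12 of them, beside 54.5% of all genes. An inhibitor and a ligand, BIRC3 and TNFSF10, stood at its top, but neither class moved as a whole. The inhibitors BIRC2 and XIAP lay at -0.81 and 0.34, and the ligand EDA at -0.38. BIRC3, an inhibitor of apoptosis of the NF-κB response, and TNFSF10, which encodes TRAIL, were well above background with periostin siRNA alone, and were at least 9.20-fold and 8.13-fold higher. FASLG, the ligand of FAS, was not well above background on either array. Of the BH3-only genes outside the p53 set, BMF went from 71.9 to 266 at 1.89. BCL2L11, which encodes BIM, went from 143 to 426 at 1.58, although another BCL2L11 probe gave 0.44. BID and BAD moved less, at 0.42 and 0.27. BIK was well above background with periostin siRNA alone, at least 1.42-fold higher, and HRK was so on neither array. BCL2, a survival gene with dim signal, went from 50.2 to 24.6 at -1.03 ± 0.24 (SD over 10 spots). The other survival genes of its family did not share this drop. BCL2L1, BCL2A1, BCL2L2 and MCL1 lay at 0.25, 0.01, -0.04 and -0.46.

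Among 18 partners of the repair targets the median log2 ratio was 0.08, and RRM2 was the only one past 2-fold. DDB1, the partner of DDB2, was at 0.18, and RAD23B and CETN2, the partners of XPC, were at 0.25 and -0.02. The paralogues of GADD45A, GADD45B and GADD45G, were at 0.84 and 0.77, the former being the highest of the list.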
